A study of Mus musculus with 10 samples.

Results

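Of the 25232 genes in the authors' deposited table, 9 encode the calcium-binding proteins of neurons described here, and all 9 were found by their symbol. They comprised the calcium buffers *Pvalb*, *Calb1* and *Calb2*, the calmodulin genes *Calm2* and *Calm3*, the neuronal calcium sensors *Hpca* and *Hpcal4*, and *Necab1* and *Necab2*. The rule finds them by symbol and uses no measured value, but the set was proposed with earlier results of these data known. RNA was sequenced from the spinal cord of 10 female mice at 90 days of age on a C57BL/6 background, 5 of them SOD1 G93A and 5 wild type littermates (WT). SOD1 G93A mice carry many copies of a human *SOD1* transgene with a mutation found in familial amyotrophic lateral sclerosis, and the WT mice carry no transgene. The lumbar region is named in the study's methods, and the labels mention no segment.

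The level of each gene was taken as the base mean, which is the authors' mean over all 10 libraries of read counts divided by size factors. It is 1 value per gene for both genotypes together, without an error or a value for single mice. The other columns of the table hold the authors' own comparison of the genotypes and were not used here. Whether any of the 9 genes differed between SOD1 G93A and WT mice was therefore not analysed, and the order of the levels is given without a test. In whole tissue, a low level from few cells that express a gene strongly cannot be told apart from weak expression in many cells.

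Calcium enters neurons through channels and receptors when they fire and is held at a very low free concentration between such events. Buffer proteins bind the incoming calcium and shape how long and how far it spreads. Sensor proteins change their form when they bind it and pass the signal on to enzymes and channels. Most of these proteins bind calcium through the EF-hand, a helix-loop-helix fold. Parvalbumin, calbindin and calretinin are widely used to tell apart classes of neurons in the spinal cord. Motor neurons that are lost early in amyotrophic lateral sclerosis are known for their low content of parvalbumin and calbindin.

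*Calm2* and *Calm3* show how separate genes can make the same protein. The coding sequence without the stop codon was 447 bases long in both, read from GENCODE M21 transcripts on GRCm38. They differed at 78 positions, and 74 of those (94.9%) were at the third position of a codon. The genes differed in 76 of the 149 codons, and all 76 coded for the same amino acid in both. The first 150 coding bases are shown 5′ to 3′ to let the eye follow this pattern, with the 23 positions that differ between the genes in capitals.
Calm2: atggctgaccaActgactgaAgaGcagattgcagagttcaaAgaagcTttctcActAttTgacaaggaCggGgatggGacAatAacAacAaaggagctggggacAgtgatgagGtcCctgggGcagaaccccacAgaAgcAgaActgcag
Calm3: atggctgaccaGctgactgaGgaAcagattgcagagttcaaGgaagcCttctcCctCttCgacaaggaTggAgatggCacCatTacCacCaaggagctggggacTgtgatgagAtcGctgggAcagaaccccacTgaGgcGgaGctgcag

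Such differences let reads from the coding sequence be assigned to 1 calmodulin gene. The 447 coding bases are a part of the exons, which cover 1467 bases in *Calm2* and 2423 in *Calm3*. *Calm2* and *Calm3* were identical at 82.6% of coding positions, and the longest run of bases they shared was 17. Only uniquely mapped reads were counted by the authors, from reads of 100 bases. Of the 1527 different 100-base windows in *Calm2* transcripts, 11 (0.72%) also occurred in a transcript of another gene, which was the processed pseudogene *Gm7308*. In *Calm3*, 3 of 2508 windows (0.12%) were shared, with the pseudogene *Gm5881*. None of the windows of *Calm2* was found in *Calm3*, within the transcripts searched.

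All 9 genes lay above the median of the 20973 genes with a base mean above 0, which was 247.1. The highest base mean was that of *Calm3* with 28524, number 45 of all genes. *Calm2* followed with 16270, number 116. *Calb2*, the gene of calretinin, had a base mean of 3720 and was the last of the 3 genes in the top 10% of genes, where the limit was 2462. The lowest base mean was that of *Calb1*, the gene of calbindin, with 862.6, still above 72.2% of genes. Together, the 9 genes took 0.259% of the summed base means of the table. *Calm2* and *Calm3* made up 78% of that share, and the other 7 genes lay within a 4.31-fold range of each other.

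Because long transcripts collect more reads, levels of different genes were compared after division by length. The main length was the union of all exons of a gene in GENCODE M21, in kb. On this scale 5 of the 9 genes were in the top 10% of genes, against 3 by base mean. The gain came from *Pvalb* and *Hpca*, whose exons cover 1041 and 2922 bases. The 9 genes spanned a 66.1-fold range per kb, compared with a 33.1-fold range of base means.

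**Figure D1:**
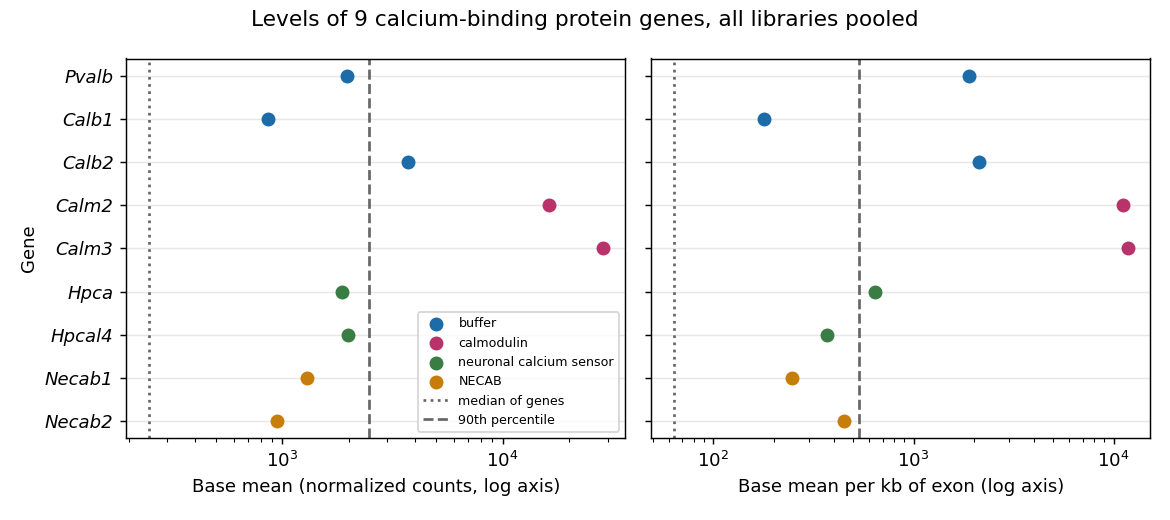
Base mean of each gene (left) and base mean per kb of exon (right), both on log axes, each as 1 point for all 10 libraries together, coloured by type of protein. All 9 points lie to the right of the dotted median of genes, and 3 (left) or 5 (right) lie beyond the dashed 90th percentile.

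The 3 buffer genes differed widely in level. *Calb2* had the highest level per kb among them with 2134, and *Pvalb*, the gene of the fast-binding buffer parvalbumin, was close to it with 1888 per kb. *Calb1* had 178 per kb, so that *Calb2* was 12-fold and *Pvalb* 10.6-fold higher than *Calb1* per kb. By base mean, without length, the difference of *Calb2* over *Calb1* was 4.31-fold, and *Pvalb* had 1966 against 862.6 for *Calb1*. Per kb of coding sequence *Calb1* had 1102, so the size of both differences depended on the length used. The order of *Pvalb* and *Calb2* was not stable, since *Pvalb* was higher (5957 against 4575) per kb of coding sequence. *Calb1* was last or next to last of the 9 genes per kb under each length tried.

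*Pvalb* lies on chromosome 15 of GRCm38 from 78191114 to 78206400 on the minus strand. *Calb2* lies on chromosome 8 from 110137502 to 110168210 on the minus strand, and *Calb1* on chromosome 4 from 15881264 to 15908064 on the plus strand. Calbindin and calretinin are related proteins, and the coding sequences of *Calb1* and *Calb2* were identical at 62.7% of the columns of their alignment. No window of 100 bases of *Pvalb*, *Calb1* or *Calb2* was found in a transcript of another gene.

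Parvalbumin is also abundant in fast skeletal muscle and in large sensory neurons of the dorsal root ganglion. The 6 markers of skeletal muscle were all detected, with base means from 77.33 (*Actn3*) to 251.1 (*Acta1*), and summed to 402.8 per kb. Per kb, *Pvalb* was 11.6-fold above *Acta1*, the gene of skeletal actin, and 51.2-fold above *Ckm*, the gene of muscle creatine kinase. By base mean *Pvalb* had 1966 and *Ckm* 107.5. The ratio of *Pvalb* to these genes within muscle is not known from these data. Of the markers of dorsal root ganglion neurons, which were not chosen for the large ones, *Scn10a* had a base mean of 86.94 and *Avil* of 71.65. *Isl2* had 46.95 and *Trpv1* 14.9. The fifth, *Prph*, had 1424 and is also expressed by motor neurons. The part of such tissue in the level of *Pvalb* was not tested.

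*Calm3* and *Calm2*, which encode the calcium sensor calmodulin, were the highest of the 9 genes per kb, with 11772 and 11091. *Calm3* exceeded *Calm2* 1.75-fold by base mean, but the exons of *Calm3* cover 2423 bases and those of *Calm2* 1467. Per kb, *Calm2* reached 0.942 times the level of *Calm3*. With the longest or the curated transcripts the order turned, with 13502 for *Calm2* and 12456 for *Calm3*, a 1.08-fold difference. Per kb of coding sequence *Calm3* was the higher with 63812 against 36398, a 1.75-fold difference. Without an error it cannot be said that their levels per kb differ.

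*Calm3* lies on chromosome 7 from 16915379 to 16924114 and *Calm2* on chromosome 17 from 87433412 to 87446935, both on the minus strand. Calmodulin works in all cell types, and its genes are not markers of neurons. In level per kb, the synaptic gene *Snap25* reached 0.739 times the level of *Calm3*. By base mean the order turned, with 59050 for *Snap25* and 28524 for *Calm3*, and no other length was tried for *Snap25*.

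*Hpca* encodes hippocalcin, and *Hpcal4* encodes a close relative of it. Both belong to the neuronal calcium sensors, some of which carry a fatty acid at their start and move to membranes on binding calcium. Their base means were similar, 1872 for *Hpca* and 1977 for *Hpcal4*. Per kb *Hpca* had 640.8 and *Hpcal4* 370.2, a 1.73-fold difference in the other direction. The exons of *Hpcal4* cover 5339 bases, of which 573 are coding, and per kb of coding sequence *Hpcal4* was again the higher with 3450 against 3234. Which of both was higher therefore depended on the length used.

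*Hpca* lies on chromosome 4 from 129111570 to 129122036 on the minus strand and *Hpcal4* on the same chromosome from 123183227 to 123194701 on the plus strand. Their coding sequences were identical at 71.6% of alignment columns. The longest run of bases that both share has 27 bases, from base 232 to base 258 of each coding sequence, and is shown because it is the longest stretch without a difference between them.
Hpca and Hpcal4: ggcaccatcgacttccgggagttcatc
This is shorter than a read, and no 100-base window was shared between them. In GENCODE M21, 57 exon bases of *Hpca* overlap *Tmem54* on the opposite strand, which had a base mean of 93.22.

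*Necab1* and *Necab2* encode neuronal proteins with an EF-hand and a domain related to bacterial monooxygenases, and both are known from neurons of the dorsal horn. *Necab1* had a base mean of 1290 and *Necab2* of 943.8. Per kb the order turned, with 450.3 for *Necab2* and 246.2 for *Necab1*, a 1.83-fold difference. Per kb of coding sequence *Necab1* was the higher again, with 1221 against 808.8. The transcripts of *Necab1* shared 311 of 5136 windows (6.06%) with the antisense gene *Gm11837*, whose exons overlap 410 bases of *Necab1* exons. *Gm11837* had a base mean of 124.9, and the strand setting of the counting is not given in the sources used here. *Necab1* lies on chromosome 4 from 14952245 to 15149794 on the minus strand and *Necab2* on chromosome 8 from 119446719 to 119472640 on the plus strand.

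**Figure D2:**
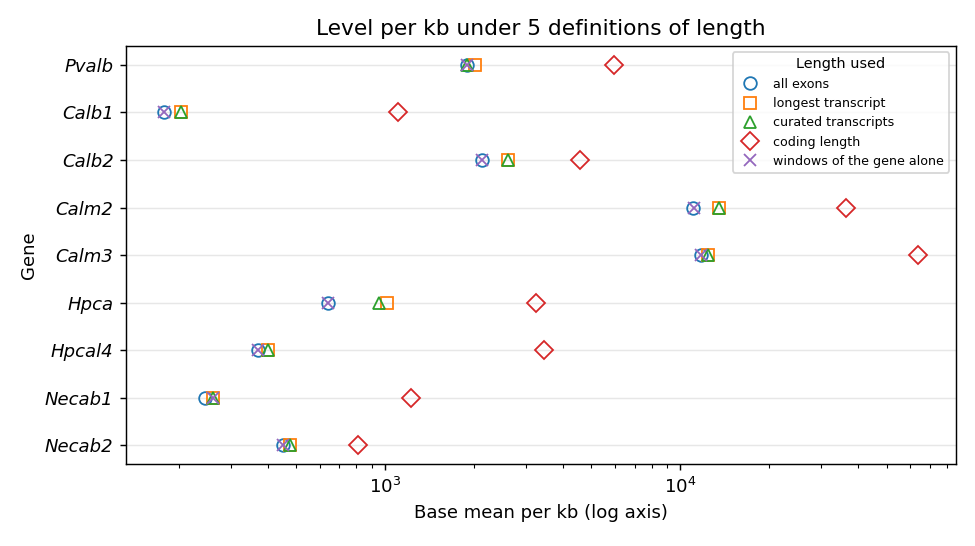
Base mean per kb of each gene on a log axis, with 1 symbol for each of 5 lengths: all exons, the longest transcript, the exons of curated transcripts, the coding sequence, and exons scaled to the windows found in no other gene. *Calm2* and *Calm3* lie furthest to the right under each length but change their order with each other, as do *Pvalb* and *Calb2*. The symbols of *Hpca*, *Hpcal4*, *Necab1*, *Necab2* and *Calb1* also change their order.

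Of the 9 genes, 4 lie on chromosome 4, which holds 6.31% of the measured protein-coding genes, and 2 lie on chromosome 8, which holds 5.13%. *Necab1* and *Calb1* are separated by 731 kb with 1 protein-coding gene between them. The other pairs on a shared chromosome are further apart, with 5.92 Mb between *Hpcal4* and *Hpca* and 9.28 Mb between *Calb2* and *Necab2*. No test was made of these positions.

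Among the 11 neuronal calcium sensors listed, 10 had a base mean above the median gene, and *Rcvrn*, the gene of recoverin of the retina, had only 1.484. The highest of the family was *Vsnl1*, the gene of visinin-like protein 1, with a base mean of 14098 and 7208 per kb. It was 11.2-fold above *Hpca* per kb, and *Ncs1* was 3.31-fold above *Hpca*. *Hpca* was number 4 and *Hpcal4* number 7 of the 11 by level per kb, after *Vsnl1*, *Ncs1* and *Hpcal1* (922 per kb). These places depend on the length used. By base mean *Hpcal1* had 1563, below *Hpca* (1872) and *Hpcal4* (1977), while *Ncald* had 3567. With the longest transcript *Hpca* had 1014 per kb. For the sensors other than *Hpca* and *Hpcal4*, no other length was tried. The 4 *Kcnip* genes, whose products bind potassium channels, had between 114.8 (*Kcnip2*) and 550.8 (*Kcnip3*) per kb. *Necab3*, the remaining gene of its family, had 466.3 per kb, close to *Necab2*.

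Among the 8 cytosolic EF-hand proteins listed with the buffers, *S100b*, mostly made by astrocytes and oligodendrocytes, was the highest with 11202 per kb, 5.93-fold above *Pvalb*. *S100a1* had 1975 per kb of exon and lay between *Calb2* and *Pvalb*. By base mean it had 1371, below *Pvalb* (1966) and *Calb2* (3720), and no other length was tried for it. *Scgn*, *Ocm* and *S100g* had base means of 1.901, 1.545 and 0.8231. Of the 8 *CaBP* genes and their relatives, 3 were above the median gene. *Cabp7* was the highest with 2213 per kb, followed by *Cabp1* with 316.3 and *Caln1* with 145, and the other 5 had base means of at most 22.92.

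**Figure D3:**
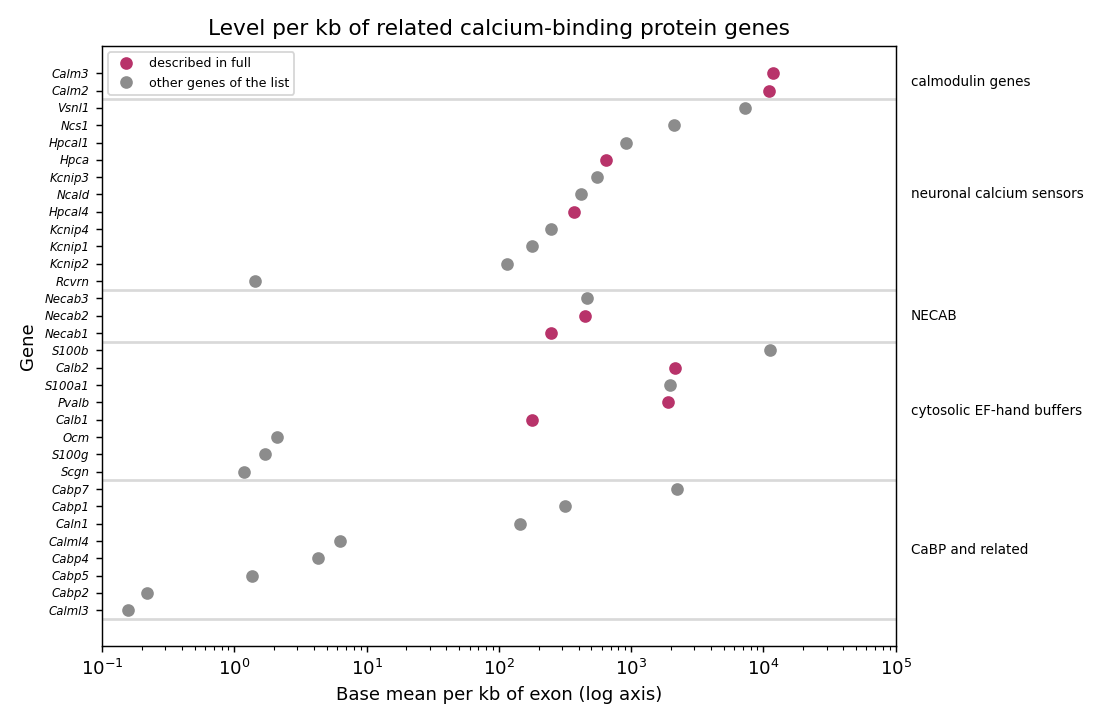
Base mean per kb of exon on a log axis for the genes of 5 lists, with the 9 genes described in full in magenta and their relatives in grey, ordered by level within a list. *Calm2* and *Calm3* lie close together at 11091 and 11772, and *Hpca* and *Hpcal4* lie below *Vsnl1* with 7208.

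The tissue was checked with marker genes. General neuronal markers were high, with base means from 3498 (*Rbfox3*) to 59050 (*Snap25*), and so were the inhibitory markers *Gad1*, *Gad2*, *Slc32a1* and *Slc6a5*, from 3091 to 4380. The glycine transporter gene *Slc6a5* is typical of spinal cord and brainstem. The motor neuron markers *Chat*, *Slc5a7* and *Slc18a3* had base means of 735.3, 2316 and 1170, and the transcription factors *Mnx1* and *Isl1* had 37.33 and 45.63. The 6 *Hox* genes of caudal segments had base means from 79.5 (*Hoxd11*) to 535.8 (*Hoxa9*) with a median of 198.2. The 5 genes of rostral segments and hindbrain had base means from 102.3 (*Hoxa2*) to 688.9 (*Hoxb3*) with a median of 227.4, so the base means of both lists overlapped. The 6 genes listed for cerebellum and forebrain ranged from 3.604 (*Tbr1*) to 90.78 (*En2*), and *Neurod6* of the forebrain had 78.89, about the level of *Hoxd11*. Whether genes of this list, such as *En1* with 45.91, are also expressed by spinal neurons was not checked. Microglial markers lay between 480 and 3041. *Mbp* of oligodendrocytes had a base mean of 319615 and *Gfap* of astrocytes one of 56290. Per kb, *Pvalb* with 1888 was 12.1-fold above *Chat* and 2.65-fold above *Prph*. *Chat* had 156.3 per kb, and the motor neuron markers *Slc5a7* and *Slc18a3* had more, 410.3 and 484.8. By base mean *Pvalb* had 1966, nearer to *Chat* with 735.3 and *Prph* with 1424, and below *Slc5a7* with 2316. No other length was tried for these markers. The level of *Slc17a6*, a marker of excitatory neurons, was 973.3 per kb, between *Pvalb* and *Hpca*, while *Slc17a7* and *Slc17a8* had 85.35 and 11.29. By base mean *Slc17a6* had 5255, above both *Pvalb* and *Hpca* (1872), and no other length was tried for it.

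Promoter sequences from RefSeq on GRCm38.p6 were found for 5 of the 9 genes, with 8 start sites in all. No entry was used for *Calb1*, *Calb2*, *Calm2* and *Necab1*. The 250 bases before each start were examined for CpG dinucleotides, in which a cytosine is followed by a guanine and which are dense at the starts of genes active in many tissues. Among the 32841 promoters with such a sequence, the median was 6 CpG. The promoter of *Calm3* held 33, more than 96% of promoters. *Pvalb* has an upstream and a downstream start, with 4 CpG before the former (more than 37.8% of promoters) and 23 before the latter (86.7%). These 3 sequences are shown because *Calm3* had the most CpG and the starts of *Pvalb* differed most from each other. They are printed 5′ to 3′ on the strand of the gene, all on the minus strand, with each CpG in capitals.
Calm3, chr7:16924033-16924282: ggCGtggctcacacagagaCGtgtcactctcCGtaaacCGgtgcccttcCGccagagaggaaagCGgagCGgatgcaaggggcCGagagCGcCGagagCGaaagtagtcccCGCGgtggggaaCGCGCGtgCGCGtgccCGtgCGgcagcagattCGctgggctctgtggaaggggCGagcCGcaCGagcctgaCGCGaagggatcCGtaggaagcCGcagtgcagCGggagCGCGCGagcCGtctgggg
Pvalb, upstream start, chr15:78206401-78206650: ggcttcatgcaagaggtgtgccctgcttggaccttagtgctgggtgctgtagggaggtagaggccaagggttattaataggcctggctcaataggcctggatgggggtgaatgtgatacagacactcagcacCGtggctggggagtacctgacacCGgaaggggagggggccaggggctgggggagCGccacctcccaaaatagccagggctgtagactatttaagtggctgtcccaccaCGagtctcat
Pvalb, downstream start, chr15:78204238-78204487: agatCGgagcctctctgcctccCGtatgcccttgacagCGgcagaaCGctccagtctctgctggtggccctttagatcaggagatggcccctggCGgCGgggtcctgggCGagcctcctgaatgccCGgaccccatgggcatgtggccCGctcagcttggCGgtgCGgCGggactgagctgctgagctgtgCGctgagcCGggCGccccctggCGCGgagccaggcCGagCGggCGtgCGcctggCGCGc

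The 3 starts of *Hpca* had 3, 6 and 16 CpG, and *Hpcal4* and *Necab2* had 16 and 13. The GC content of the 8 sequences lay between 51.2% and 71.6%, with a median of 52.4% over all promoters. The letters TATAAA, a form of the TATA box, were in none of the 8 on either strand, and 12.4% of all promoters held them. GGGCGG, the GC box, was found before 2 starts of *Hpca* and before *Hpcal4* (32.7% of all promoters), and CCAAT only before *Hpcal4* (33.9% of all promoters). These matches describe the sequences alone, and which start of *Pvalb* or *Hpca* was used in the tissue was not measured.

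**Figure D4:**
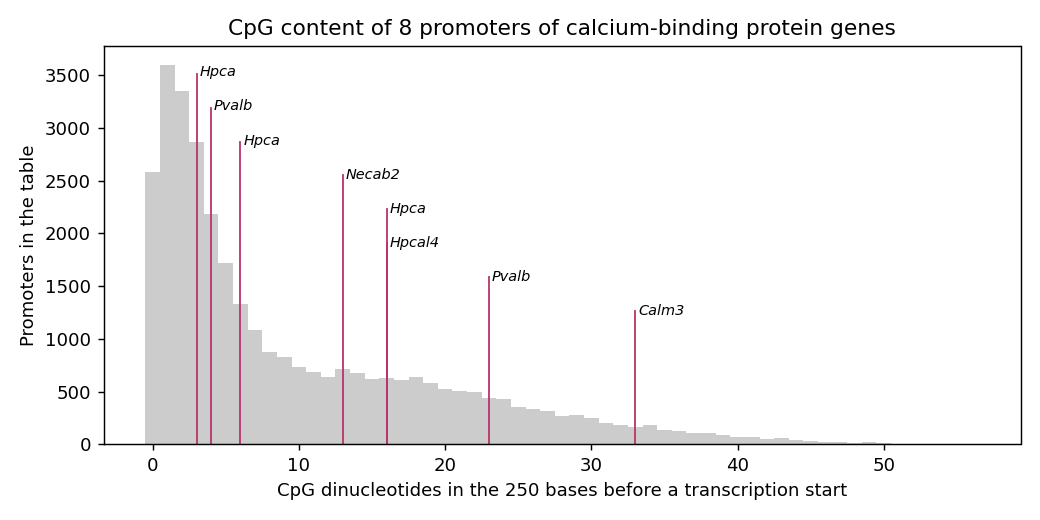
Number of CpG dinucleotides in the 250 bases before a start (horizontal axis) and number of promoters with that count (grey bars), with a magenta line for each of the 8 starts of the 5 genes, whose height only spaces the labels. *Calm3* lies furthest to the right at 33, and the starts of *Pvalb* lie apart at 4 and 23.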

How the data were processed

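RNA of 10 spinal cord samples, 5 SOD1 G93A and 5 WT by their titles, was sequenced with a stranded mRNA protocol and paired reads of 100 bases. According to the methods and labels, the authors filtered reads with Fastp, aligned them to mm10 with HISAT2 2.1.0, counted uniquely mapped reads with featureCounts 2.0.2 and used DESeq2. The annotation and the strand setting are not given in the sources used here. The base mean in the authors' deposited table is a normalized signal: gene counts divided by size factors and averaged over all libraries. It sums to 22158933 over all genes and was used as deposited. The remaining columns hold the authors' own fold changes, standard errors, Wald statistics and p-values, and were not used. No depth per library and no error could be computed, so no test was made.

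Symbols were matched to GENCODE M21 (GRCm38), where 24310 of 25232 (96.3%) had a single entry. A gene's percentile is the share of other genes with a lower value. Coding sequences were aligned globally with a match score of 2, a mismatch of -1, a gap opening of -5 and an extension of -1. The 9 genes and all lists were chosen with earlier results of these data known, and all 9 were named by rule. A few genes of the lists are not reported here. The steps on sequences were tested on simulated data. Python 3.11.15, numpy 2.4.6, pandas 2.3.3, scipy 1.17.1, Biopython 1.88 and matplotlib 3.10.9 were used.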

Additional observations from a re-analysis of the deposited data

How the results depend on the processing

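The count of 9 genes above the median gene was the same when only genes at or above a base mean of 10 were ranked, and with all rows, with protein-coding genes and on the scale per kb. The count in the top 10% was 3 under the first 3 of these choices and 5 per kb. The order of the 9 genes per kb kept 7 places with the longest transcript and with curated transcripts and 9 with the windows of the gene alone, a length chosen after seeing the data. It kept 2 places with the coding length, which leaves out most of the exon bases of several genes. The share of *Calm2* and *Calm3* in the summed level per kb was 79.5%, and it was 78.8% with the longest transcript and 83.1% with the coding length. Of 36 values of single genes under the 4 other lengths, 11 stayed within a 95% binomial interval of the main value and 25 did not. Each value is the same base mean divided by another length. The tally therefore depends only on the lengths and the size of the base mean, and is not a test of the levels. The interval treats the base mean as a count and does not measure the spread between mice. The search of windows in a genome and the search for EF-hand loops in proteins were not run, since a genome and protein sequences were not used here. Leaving out single mice was not possible with a mean over all libraries. No paired analysis was possible because the base mean pools all libraries and the columns carry no replicate numbers.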

Other observations

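The enzymes and carriers that act with calmodulin or calcium were also well represented in the pooled libraries. Of 24 such genes, 23 had a base mean above the median gene and 13 were in the top 10% of genes by base mean. On the scale per kb these counts were 22 and 11. Per kb the highest were *Ppp3r1*, the regulatory subunit of calcineurin, with 2634, and *Gap43*, a calmodulin-binding protein of growing axons, with 1861. The lowest were *Ppp3r2*, a calcineurin subunit of the testis, with 1.882 and *Pde1c* with 33.34. Their median was 441.4 per kb, beside 63.47 over all genes.

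Of 9 calcium pumps and exchangers, 8 were above the median gene and 5 in the top 10% by base mean. On the scale per kb these counts were 8 and 3. *Atp2a2*, the calcium pump of the endoplasmic reticulum, was the highest with 3558 per kb, followed by *Atp2b3*, a pump of the plasma membrane, with 1179. *Slc8a2*, a sodium-calcium exchanger, with 107.6 and *Atp2a3* with 43.32 were the lowest. The lists were not compared with each other by a test.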
